A study of Mus musculus with 16 samples.

Results

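Transcripts of 9 genes of the myelin sheath, Mbp, Mobp, Cldn11, Mag, Mog, Cnp, Ugt8a, Mal and Opalin, were followed in bulk mouse brain. The members were the rows of the count table with these symbols, 9 of 55487 genes, each matched to 1 row. All 9 passed the filter on low counts, at least 10 counts in at least 4 mice, which 18609 genes passed.

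Brains of 16 female mice on a C57BL/6J background (C57/bl6 in the labels) were sequenced, 4 in each of 4 groups: CETPtg with vehicle, CETPtg with evacetrapib, APPtg/CETPtg with vehicle and APPtg/CETPtg with evacetrapib. All 16 mice carried the CETP transgene, which encodes cholesteryl ester transfer protein, a plasma lipid transfer protein that mice otherwise lack, and all ate a diet with 1% cholesterol by weight, begun at 11 weeks of age. APPtg/CETPtg mice (APPxCETP double transgenic in the labels) carried in addition a human APP transgene with the Swedish and Indiana mutations, driven in neurons by the Thy1 promoter. Evacetrapib, a CETP inhibitor, was injected intraperitoneally at 30 mg per kg each day for 11 weeks, and the controls received its Kolliphor EL-glucose vehicle. Mice without the CETP transgene were not analysed here, so the comparisons are between treatments and between mice with and without the APP transgene.

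The counts of a mouse summed to 21391335 to 55453789, with group medians of 35195746 and 36574277 for CETPtg and of 24992987 and 23110676 for APPtg/CETPtg mice, vehicle first. The member counts lay between 208 and 127941 per mouse, and each of the 24 pairs of mice within a group differed beyond sampling noise, with a chi-square per degree of freedom of 4.74 to 21.3. Thy1, whose promoter drives the APP transgene, was higher in APPtg/CETPtg mice, with 865 to 2063 normalised counts (CPM, scaled by TMM library sizes) against 684 to 807 CPM (log2 fold change 0.78, SE 0.15, edgeR quasi-likelihood test, adjusted p = 0.00178), and the groups did not overlap. Mitochondrial transcripts made up 2.77% to 3.45% of the counts in APPtg/CETPtg mice with vehicle and 3.28% to 3.75% in CETPtg mice with vehicle. With evacetrapib they made up 2.88% to 3.14% and 3.33% to 4.08%, so the genotypes overlapped with vehicle and not with evacetrapib. The summed CPM of 8 neuron markers was 8162 to 9549, while that of 9 hindbrain markers was 1.10 to 3.15 and that of 5 cerebellum markers 8.34 to 17.8, in tissue labelled brain.

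In the central nervous system, oligodendrocytes wrap axons in many turns of membrane. The membrane is rich in cholesterol and in galactolipids and is held together by a small set of abundant proteins. Precursors that leave the cell cycle switch on these genes together under transcription factors such as SOX10, OLIG2 and MYRF, and the sheath they build speeds conduction and feeds the axon. Mbp encodes myelin basic protein, which seals the cytoplasmic faces of the membrane, and Mobp encodes another protein of the compact sheath. Cldn11 encodes the claudin of the tight junctions of myelin, Mag an adhesion molecule on the side facing the axon and Mog an immunoglobulin-type glycoprotein on the outermost surface. Cnp encodes a phosphodiesterase of the cytoplasmic channels, Ugt8a the enzyme that makes galactosylceramide, Mal a proteolipid that sorts myelin membrane, and Opalin an oligodendrocyte sialoglycoprotein.

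The sequence before the gene start was available for 8 members, from RefSeq (GRCm38.p6), and is shown for 4 whose windows hold motifs of factors of the oligodendrocyte lineage. Each window covers the 250 bases before the start nearest to that of the annotated gene, 5′ to 3′ on the strand of the gene. In the first 3 sequences capitals mark the MYRF motif, CTGGCAC or CTGGTAC on either strand. In the last, capitals mark the SOX motif, ACAAAG on either strand.
Mag (chr7:30914864-30915113, minus strand): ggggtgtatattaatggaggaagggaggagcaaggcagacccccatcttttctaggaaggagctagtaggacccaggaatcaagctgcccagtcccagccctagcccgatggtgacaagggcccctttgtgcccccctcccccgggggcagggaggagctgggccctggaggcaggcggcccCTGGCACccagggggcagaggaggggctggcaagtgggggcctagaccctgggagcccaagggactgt
Cnp (chr11:100574689-100574938, plus strand): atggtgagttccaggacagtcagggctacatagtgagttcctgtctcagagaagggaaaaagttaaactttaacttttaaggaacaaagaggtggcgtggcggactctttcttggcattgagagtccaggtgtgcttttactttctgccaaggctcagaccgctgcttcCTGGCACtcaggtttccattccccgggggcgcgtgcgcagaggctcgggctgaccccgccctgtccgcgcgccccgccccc
Mog (chr17:37023399-37023648, minus strand): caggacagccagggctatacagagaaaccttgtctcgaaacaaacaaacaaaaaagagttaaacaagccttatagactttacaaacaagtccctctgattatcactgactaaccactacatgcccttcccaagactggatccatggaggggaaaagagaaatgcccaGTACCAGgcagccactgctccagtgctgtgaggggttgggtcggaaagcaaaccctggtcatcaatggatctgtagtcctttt
Mobp (chr9:120149492-120149741, plus strand): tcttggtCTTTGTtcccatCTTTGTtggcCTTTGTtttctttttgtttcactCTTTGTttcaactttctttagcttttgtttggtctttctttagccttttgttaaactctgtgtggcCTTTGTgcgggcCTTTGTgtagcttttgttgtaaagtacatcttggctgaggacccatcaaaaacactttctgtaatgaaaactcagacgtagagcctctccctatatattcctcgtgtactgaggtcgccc
The MYRF motif was found in 3 of the 8 windows (Mag, Cnp and Mog) and in 5.93% of all 32851 windows of this length in the table. The SOX motif was found in 4 of the 8 (Mobp, with 6 matches, and Mag, Cnp and Opalin, with 1 each) and in 16.5% of all windows. The E-box CAGCTG, which OLIG factors bind, was in 0 of the 8 windows and in 13% of all. These matches describe the letters of the windows and show no binding.

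Levels can be compared between genes only per length, and CPM were divided by the exon length of each gene in GENCODE M21. Over the 16 mice Mbp was the most abundant member, at 255 ± 29.7 CPM per kb (SD, n = 16), and Mobp followed at 102 ± 11.99 CPM per kb. Cnp, Cldn11, Mal and Mag lay between 45.3 and 75.6 CPM per kb, Mog at 24.9, Ugt8a at 6.75 and Opalin at 5.41. The order of neighbours was the same in 16 of 16 mice except for Cldn11 over Mal and Ugt8a over Opalin, each of which held in 15 of 16. The order depends on the length used, which is the same in every mouse. For Mag the exon length is 4072 bases and the longest transcript 2434, and for Mobp they are 6849 and 3286. The genes lie on 8 chromosomes (GRCm38), and only Cldn11 (chr3:31149920-31164324, plus strand) and Ugt8a (chr3:125865271-125938619, minus strand) share one. An exon of Dnajc7 on the opposite strand covers 4.23% of the exon bases of Cnp, and the strand setting of the counting was not given in the sources used here. For Mobp, 1.15% of the exon bases are shared with Gm38642 on the same strand.

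**Figure D1:**
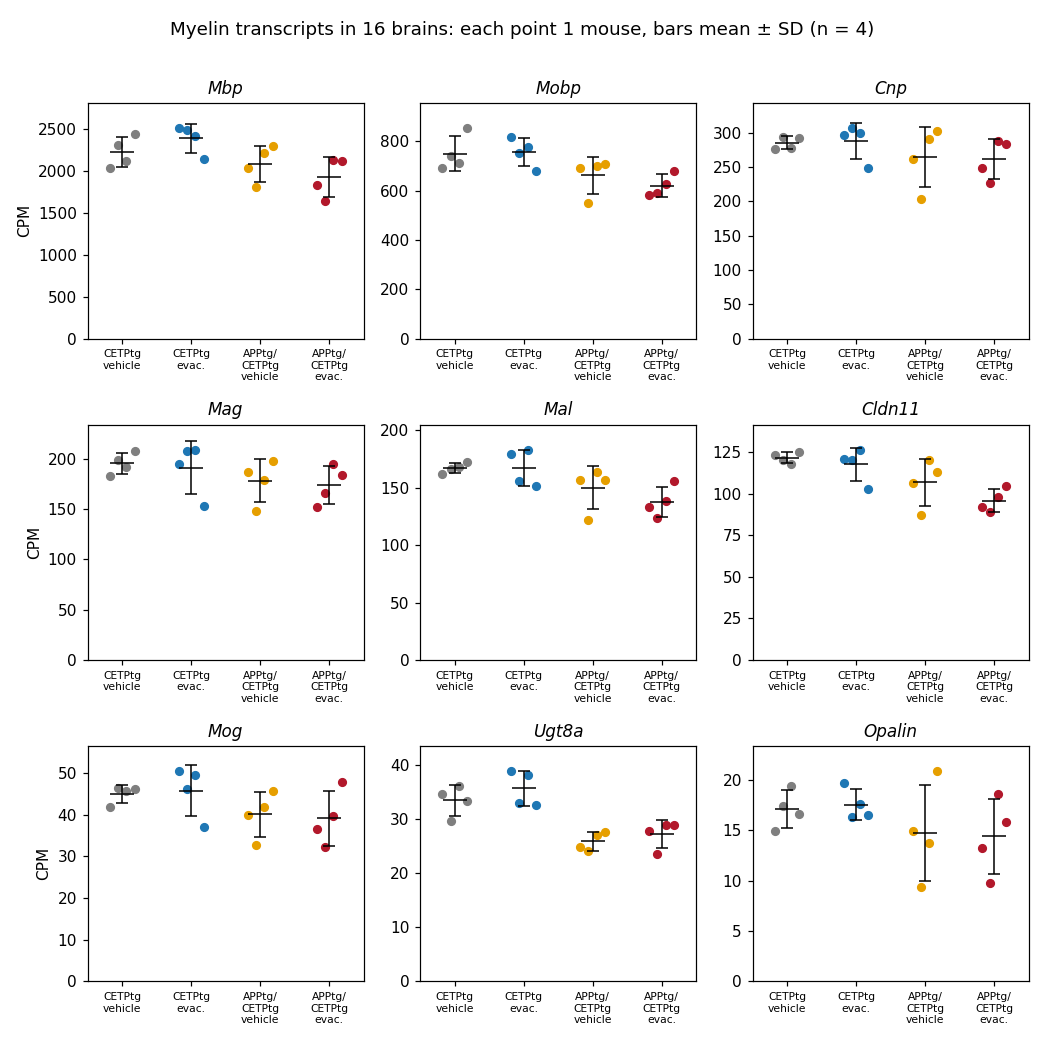
CPM of each myelin gene (vertical axes, starting at 0) in the 4 groups; each point is 1 mouse and the black bars are the mean ± SD of 4 mice. For Ugt8a every APPtg/CETPtg mouse, at 23.5 to 29.0 CPM, lies below every CETPtg mouse, at 29.6 to 38.9 CPM, while for the other 8 genes the genotypes overlap.

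Mice are called as in the labels: S1 to S4 (CETPtg) and S5 to S8 (APPtg/CETPtg) had vehicle, A to D (CETPtg) and E to H (APPtg/CETPtg) evacetrapib, and the values of each group are listed in this order of its mice. The first question was whether evacetrapib moved the myelin transcripts. None of the 9 passed the test for evacetrapib over all 16 mice, in either genotype, or in the difference between the genotypes' responses. Over all mice the log2 fold changes lay between −0.10 (Cldn11) and 0.08 (Ugt8a), with a median of −0.01 beside 0.00 for all genes tested. In this comparison 0.0107% of the genes tested were called, that is 2 genes, and 0 of 9 members is read against that share (edgeR quasi-likelihood test, adjusted p between 0.689 and 0.999 for the members; a gene was called at an adjusted p of 0.05 or below with a change of at least 5%). At an unadjusted p under 0.05 there were 0 of 9 members and 1472 genes in all, and the Wald test of DESeq2, limma-voom and the other alternatives also called 0 members.

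In CETPtg mice Mbp stood at 2042, 2309.7, 2124 and 2439.8 CPM with vehicle and at 2512, 2489, 2424 and 2143 CPM with evacetrapib. In the APPtg/CETPtg mice 2039, 1809, 2215 and 2298 CPM were found with vehicle and 1841, 1641, 2133 and 2128 CPM with evacetrapib. The evacetrapib-treated CETPtg mice included the highest Mbp values and the evacetrapib-treated APPtg/CETPtg mice the lowest, and the treatment groups overlapped in both genotypes. The log2 fold change of Mbp with evacetrapib was 0.10 (SE 0.09, adjusted p = 0.881) in CETPtg and −0.11 (SE 0.09, adjusted p = 0.743) in APPtg/CETPtg mice. The difference between the genotypes in this response was −0.21 (95% interval −0.47 to 0.05, adjusted p = 0.752), the largest of the 9 in size, and it did not pass the test.

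In CETPtg mice Cldn11 stood at 123, 121, 118 and 125 CPM with vehicle and at 121, 120.5, 127 and 103 CPM with evacetrapib. In the APPtg/CETPtg mice 106, 87.3, 121 and 113 CPM were found with vehicle and 92, 89.2, 97.9 and 105 CPM with evacetrapib. Of the 9, Cldn11 had the smallest p for evacetrapib over all mice, 0.0847 unadjusted in the edgeR test, with an adjusted p of 0.689 and a 95% interval from −14.2% to 1.07%. Among APPtg/CETPtg mice the log2 fold change with evacetrapib was −0.16 (SE 0.08, adjusted p = 0.586), and the values of the treatment groups overlapped. Within CETPtg mice 0% of all genes tested were called and within APPtg/CETPtg mice 0.0430%, which is 8 genes, and for the difference between the genotypes 0% were called. At an unadjusted p under 0.05 these 3 edgeR tests held 1079, 1677 and 1271 genes, and 0 of the 9 members in each.

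The data limit how large a response could have been missed. Over all mice the 95% intervals of the 9 members together ran from −17.5% to 19.4%, both ends set by Opalin, the member with the widest spread. For Mbp the interval ran from −9.28% to 9.54%, and for Ugt8a from −2.36% to 14.6%. Transcript markers of some other structures differed more: the summed CPM of 7 hypothalamus markers ranged from 2.22 to 139 and of 6 choroid plexus markers from 10.5 to 462 between mice. Not all did: the range was 586 to 742 for cerebral cortex and 1309.9 to 1892 for striatum, beside 2904 to 4228 for the 9 members. Of 148 tested genes on lists of other cell types, regions and lineage genes, edgeR and limma-voom called 0 with evacetrapib, with 18 and 16 at an unadjusted p under 0.05, and DESeq2 called 4, the endothelial genes Flt1, Pecam1, Kdr and Cdh5. The median log2 fold change was −2.03 for the 3 hypothalamus markers tested, −0.60 for the 6 of choroid plexus and 0.31 for the 7 of endothelial cells, and their part in the member values was not tested.

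**Figure D2:**
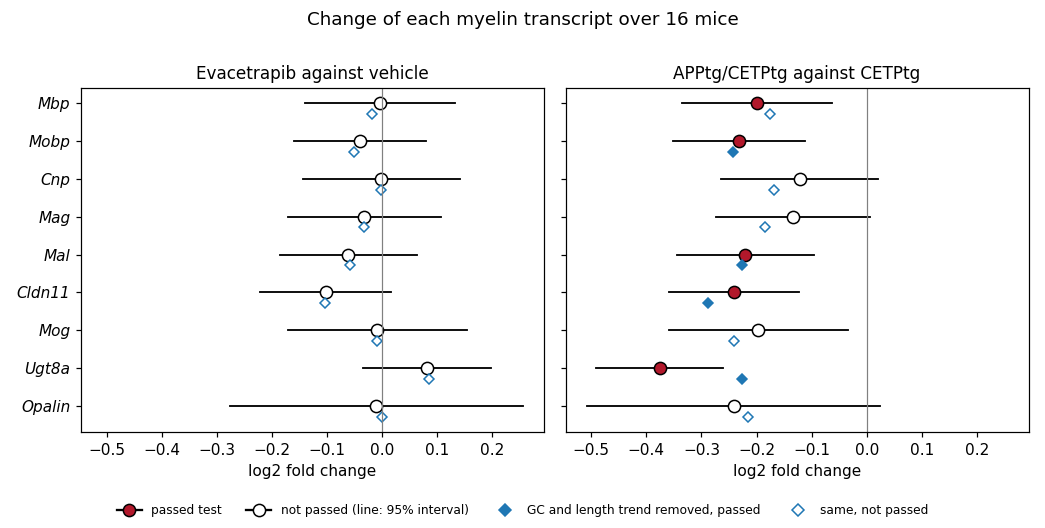
Log2 fold changes (horizontal axes) of the 9 genes with evacetrapib against vehicle (left) and in APPtg/CETPtg against CETPtg mice (right); circles are the estimates over 16 mice with 95% intervals as lines, filled where the test was passed, and diamonds the estimates after each mouse's trend with GC content and length was removed. On the left every interval includes 0, and on the right all 9 estimates are below 0, between −0.38 and −0.12.

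The second question was whether the myelin transcripts differed between genotypes. All 9 had a lower estimate in APPtg/CETPtg than in CETPtg mice, and 5 passed the test: Ugt8a, Cldn11, Mobp, Mal and Mbp. The smallest of these changes was −12.9% (Mbp) and the largest −22.9% (Ugt8a). With the GC and length trend of each mouse removed, Ugt8a moved from −0.38 to −0.23 on the log2 scale, Cldn11 had the largest change (−0.29) and Mbp was no longer called. In this comparison 8.38% of all genes tested were called lower, 1559 of 18609, beside 1740 called higher. Without the TMM factor the split over all genes was 2099 higher and 1229 lower, and 4 of the 9 members were called, Mbp no longer among them. The median log2 fold change of the 9 was −0.22 and that of all genes tested 0.00. The share of mitochondrial transcripts, given above, was lower in APPtg/CETPtg mice with evacetrapib, without overlap, and its part in the member values was not tested. Bulk RNA cannot tell fewer oligodendrocytes from less myelin RNA in each.

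In CETPtg mice Ugt8a stood at 34.7, 29.6, 36.2 and 33.4 CPM with vehicle and at 38.9, 33.1, 38.2 and 32.7 CPM with evacetrapib. In the APPtg/CETPtg mice 24.9, 24.1, 27.1 and 27.7 CPM were found with vehicle and 27.8, 23.5, 29 and 28.9 CPM with evacetrapib. Ugt8a was the only member whose genotypes did not overlap over all mice. Lower values with no overlap between genotypes were found for 1 of 9 members and for 1.30% of all genes tested. The log2 fold change of Ugt8a was −0.38 (SE 0.06, 95% interval −0.49 to −0.26, edgeR quasi-likelihood test, adjusted p = 0.000192), a change of −22.9%. The ratio of Ugt8a to each of the other 8 members differed between the genotypes by −0.08 (Opalin) to −0.25 (Cnp) on the log2 scale, and in each case the 8 mice of one genotype overlapped those of the other. The CPM in these ratios keep each mouse's trend with GC content and length. With that trend removed the log2 fold change of Ugt8a was −0.23, beside a median of −0.23 over the 9 members and −0.29 for Cldn11.

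Cldn11, at 120 ± 7.29 CPM (SD, n = 8) in CETPtg and 101 ± 11.9 CPM in APPtg/CETPtg mice, had a log2 fold change of −0.24 (SE 0.06, edgeR, adjusted p = 0.00599). The 4 evacetrapib-treated APPtg/CETPtg mice included only 1 above the lowest CETPtg mouse. Mobp stood at 691, 742, 713 and 852 CPM in CETPtg mice with vehicle and at 816, 753, 776 and 681 CPM in those with evacetrapib. The APPtg/CETPtg mice had Mobp at 690.1, 551, 699 and 707 CPM with vehicle and at 580.1, 591, 628 and 681 CPM with evacetrapib. Its highest value was in a CETPtg mouse with vehicle and its lowest in an APPtg/CETPtg mouse with vehicle, S6. Mobp fell by 14.9% (log2 fold change −0.23, SE 0.06, edgeR, adjusted p = 0.00821).

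Mal stood at 162, 167, 168 and 173 CPM in CETPtg mice with vehicle and at 179, 156, 183 and 152 CPM in those with evacetrapib. The APPtg/CETPtg mice had Mal at 157, 122, 164 and 156 CPM with vehicle and at 133, 123, 138 and 156 CPM with evacetrapib. The 8 APPtg/CETPtg mice and the 8 CETPtg mice overlapped between 152 and 164 CPM. Mal fell by 14.2% (log2 fold change −0.22, SE 0.06, edgeR, adjusted p = 0.0144), and Mbp by 12.9% (−0.20, SE 0.07, adjusted p = 0.0402). The call of Mbp was lost without any 1 of 9 mice (A, B, C, E, F, S2, S4, S5 or S6), with adjusted p between 0.0536 and 0.0728.

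Mog, Mag, Cnp and Opalin did not pass the test. In CETPtg mice Mog stood at 41.8, 46.4, 45.7 and 46.1 CPM with vehicle and at 50.4, 46.2, 49.4 and 36.9 CPM with evacetrapib. In the APPtg/CETPtg mice 39.8, 32.8, 41.8 and 45.7 CPM were found with vehicle and 36.5, 32.3, 39.6 and 47.8 CPM with evacetrapib. The highest of the 8 APPtg/CETPtg values of Mog, in H, was above 6 of the 8 CETPtg values, and the lowest CETPtg value, in D, was below 5 of the APPtg/CETPtg ones. Mog had 45.4 ± 4.27 CPM (SD, n = 8) in CETPtg and 39.5 ± 5.60 CPM in APPtg/CETPtg mice (log2 fold change −0.20, edgeR, adjusted p = 0.0873).

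Mag stood at 183, 199, 191 and 208 CPM in CETPtg mice with vehicle and at 194, 208, 209 and 153 CPM in those with evacetrapib. The APPtg/CETPtg mice had Mag at 187, 148, 178 and 198 CPM with vehicle and at 152, 166, 194 and 184 CPM with evacetrapib. D was the lowest CETPtg mouse for Mag, below 6 of the 8 APPtg/CETPtg mice. Mag had 193 ± 18.5 CPM (SD, n = 8) in CETPtg and 176 ± 18.7 CPM in APPtg/CETPtg mice (−0.13, edgeR, adjusted p = 0.180). Cnp stood at 276, 294, 278 and 293 CPM in CETPtg mice with vehicle and at 297, 306, 300.1 and 249 CPM in those with evacetrapib. The APPtg/CETPtg mice had Cnp at 262, 204, 291 and 302 CPM with vehicle and at 249, 227, 288 and 284 CPM with evacetrapib. The vehicle-treated APPtg/CETPtg mice spanned the widest range of Cnp, from S6, the lowest of the 16 mice, to S8. Cnp had 287 ± 18.5 CPM (SD, n = 8) in CETPtg and 263 ± 34.7 CPM in APPtg/CETPtg mice (−0.12, edgeR, adjusted p = 0.244).

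Opalin stood at 15, 17.4, 19.4 and 16.6 CPM in CETPtg mice with vehicle and at 19.7, 16.3, 17.7 and 16.5 CPM in those with evacetrapib. The APPtg/CETPtg mice had Opalin at 15, 9.37, 13.8 and 20.9 CPM with vehicle and at 13.3, 9.78, 18.6 and 15.9 CPM with evacetrapib. Both the lowest and the highest mouse for Opalin, S6 and S8, were vehicle-treated APPtg/CETPtg mice. Opalin had 17.3 ± 1.61 CPM (SD, n = 8) in CETPtg and 14.6 ± 3.97 CPM in APPtg/CETPtg mice. Its estimate was −0.24, as large as that of Cldn11, with an interval from −0.51 to 0.02 (edgeR, adjusted p = 0.210), and without S8 it was called (−0.35, adjusted p = 0.0415). The spread of Opalin between mice of a group was 0.32 on the log2 scale and that of the other members 0.13 to 0.19, beside a median of 0.14 over all genes tested and of 0.093 over genes within 1 log2 unit of the level of a member.

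Within vehicle-treated mice 1 of the 9, Ugt8a, was called lower (−0.36, SE 0.08, edgeR, adjusted p = 0.00874), where 4.42% of all genes tested were called lower. Within evacetrapib-treated mice 2 of the 9 were called lower, Ugt8a (−0.39, SE 0.08, adjusted p = 0.0149) and Cldn11 (−0.30, SE 0.08, adjusted p = 0.0498), where 1.71% were. For Mbp the log2 fold change was −0.31 with evacetrapib (edgeR, adjusted p = 0.0614) and −0.09 with vehicle (adjusted p = 0.554). The difference between these values is the difference of responses given above, which did not pass. Leaving out each of the 16 mice in turn gave 1 call among vehicle-treated mice every time, and 0 to 5 among evacetrapib-treated mice, with 0 without A or C and 5 without S6, where 0.260%, 0.626% and 2.68% of all genes were called lower. The call of Cldn11 with evacetrapib was kept in 4 of these 16 fits, without D, H, S6 or S7, and lost in the others, with an adjusted p of up to 0.139. Without the TMM factor the all-gene split with evacetrapib was 478 higher and 194 lower, in place of 237 and 319, and Cldn11 was no longer called.

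The genotype difference of genes in general moved with their GC content. The tested genes were divided into 10 equal bins by the GC content of the longest transcript, and the median log2 fold change in APPtg/CETPtg against CETPtg mice ran from −0.13 in the lowest bin to 0.08 in the highest. By exon length it ran from 0.11 in the shortest bin to −0.10 in the longest. Ugt8a has a GC content of 38.0% and lies in the lowest bin, Opalin (45.8%) in the third, Mal in the fifth, Mbp, Mog and Cldn11 in the sixth, Mobp in the seventh, Cnp in the eighth and Mag (57.6%) in the ninth. All 9 members lay below the median of their bin.

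**Figure D3:**
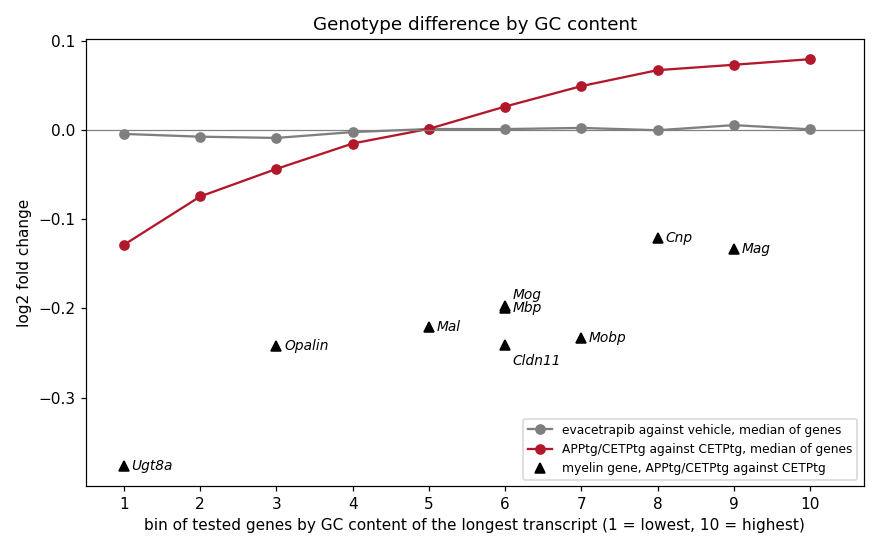
Median log2 fold change of all tested genes in 10 bins by GC content (circles joined by lines), for the genotype comparison (red) and the evacetrapib comparison (grey), with the 9 myelin genes in the genotype comparison as triangles. The red line rises from −0.13 to 0.08 while the grey line stays near 0, and the 9 triangles lie below the red line.

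With the trend of each mouse with GC content and length removed, a fit added after the data were seen, 4 of the 9 were called lower, where 2.96% of all genes tested were. The 4 were Cldn11 (−0.29, SE 0.06, edgeR, adjusted p = 0.00389), Ugt8a (−0.23, SE 0.05, adjusted p = 0.00602), Mobp (−0.24, SE 0.06, adjusted p = 0.0150) and Mal (−0.23, SE 0.06, adjusted p = 0.0226). The median of the 9 estimates was then −0.23, that of Mal. Mbp was no longer called (−0.18, adjusted p = 0.106), and Mog came close to the threshold without passing it (−0.24, adjusted p = 0.0551). The 9 estimates lay between −0.29 and −0.17, all below 0, with a median of 0.02 for all genes tested. Within vehicle-treated mice 0 members were then called in edgeR (Ugt8a −0.19, adjusted p = 0.109; 2 of 9 and 3874 of all genes had an unadjusted p under 0.05), where 0.854% of all genes were called lower. Within evacetrapib-treated mice 1 was called, Cldn11 (edgeR, adjusted p = 0.0458), where 0.398% were. The index plate held the genotypes in separate columns, so the plate column and the genotype cannot be told apart. In both genotypes the treatments lay in separate rows of the plate, so the plate row and the treatment cannot be told apart either.

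The 9 transcripts varied together from mouse to mouse. With group means removed, Pearson's r between pairs of members over the 16 mice was 0.40 to 0.93, with a median of 0.80, and it was over 0.8 in 17 of 36 pairs. These correlations describe libraries that share their depth and tissue sampling. Cnp and Mog were the most typical, with a mean r of 0.83 and 0.82 with the other 8, and Ugt8a the least, at 0.57. Among all genes, the non-members most like the 9 included Tmem88b, Plekhh1, Prr5l, Gatm, Serpinb1a, Gpr37, Myo1d, Plekhb1 and Arsg, with a mean r of 0.80 to 0.83.

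A few mice carried much of the spread. In S6, an APPtg/CETPtg mouse with vehicle, all 9 members were among the lowest 4 of the 16 mice and 6 were the lowest of all. In F, an APPtg/CETPtg mouse with evacetrapib, all 9 were among the lowest 4 as well, and in E, of the same group, 8 were. D, a CETPtg mouse with evacetrapib, lay below its group mean in 9 of 9 members, with a mean of −0.18 on the log2 scale, while A and C of that group had 8 members each among the highest 4. Some marker levels in S6 were extreme too. Its summed CPM was the highest of the 16 mice for 8 neuron markers (9549) and the lowest for 8 striatum markers (1309.9). In F that of 7 thalamus markers was the lowest (66.3). These extremes were picked from many marker lists. Counted from the lowest of the 16 mice, S6 had rank 3 for astrocyte and rank 8 for microglia markers. The part of the marker levels in the member values was not tested. Without S6 the genotype comparison called 4 of 9 members, without F 4, without E 4, and without D 7, in which Mog and Mag were added. Without S8 it called 7 as well, with Mog and Opalin added, and without H 6, with Mog added. The share of all genes called lower in these fits was 8.82% without S6, 7.30% without F, 8.74% without E, 8.07% without D, 7.04% without S8 and 8.43% without H.

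**Figure D4:**
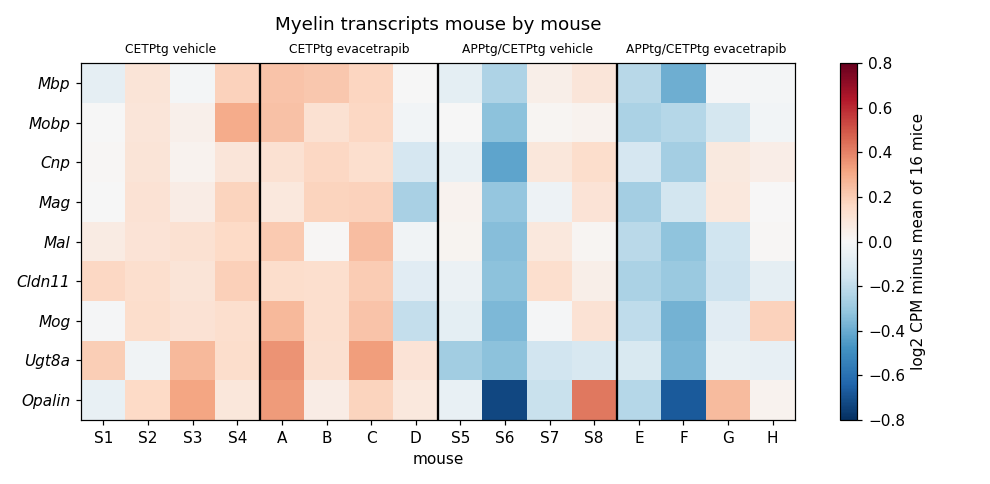
Log2 CPM of each myelin gene (rows) in each mouse (columns, by group) as the difference from the mean of 16 mice, blue below and red above. E, F and S6 are below the mean in all 9 rows, and A, B, C and S4 are above it in all 9.

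The other genes of the lineage, from lists chosen with earlier results of these data known, were read in the same genotype comparison. In it 8.38% of all genes tested were called lower, and 2.96% with the GC and length trend removed. Of 22 other genes of myelin and mature oligodendrocytes, 21 had a lower estimate and 7 were called lower, with a median log2 fold change of −0.13. Among the 7 called were Tmem88b (−0.49, SE 0.07, edgeR, adjusted p = 0.000176), Gjc3, a connexin gene (−0.33), Tspan2, a tetraspanin (−0.32), Ermn, which encodes a cytoskeletal protein of myelin (−0.30), Anln (−0.25) and Gpr37 (−0.23). With the GC and length trend removed 4 of the 22 were called lower, Tmem88b (−0.48), Gjc3, Tspan2 and Adamts4. Tmem88b stood at 54.8 ± 4.21 CPM (SD, n = 8) in CETPtg and 38.9 ± 5.58 CPM in APPtg/CETPtg mice.

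Of 10 genes of galactolipid and very long chain lipid synthesis, 4 were called lower (edgeR), where 8.38% of all genes tested were. They were Elovl7, a fatty acid elongase (−0.35), Aspa, which frees acetate from N-acetylaspartate (−0.30), Fa2h, the fatty acid 2-hydroxylase of myelin lipids (−0.21), and Kdsr, of ceramide synthesis (−0.18). Gal3st1, which makes sulfatide from the product of Ugt8a, stood at 13.8 ± 1.18 CPM (SD, n = 8) in CETPtg and 13.01 ± 1.63 CPM in APPtg/CETPtg mice and did not pass (−0.08, adjusted p = 0.492). With the trend removed Elovl7 and Fa2h were still called and Aspa and Kdsr were not, where 2.96% of all genes were called lower.

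Of 9 transcription factors of the lineage 1 was called lower, Myrf (−0.26, SE 0.07, edgeR, adjusted p = 0.00846), which drives myelin genes. This count is near the 8.38% of all genes called lower, and the other counts of this paragraph are read beside that share. With the trend removed the share of all genes was 2.96%. Sox10 (−0.09, adjusted p = 0.358) and Olig2 (−0.08, adjusted p = 0.379) did not pass. With the trend removed Myrf (−0.27), Nkx2-2 (−0.35) and Nkx6-2 (−0.32) were called. Of 7 precursor genes 3 were called lower, Vcan (−0.19), Pdgfra (−0.19) and Cacng4 (−0.18), and with the trend removed 1, Cacng4 (−0.22). Of 7 genes of newly formed oligodendrocytes 2 were called lower, Bcas1 (−0.34) and Itpr2 (−0.20), and with the trend removed Bcas1 alone (−0.36). Of 6 genes that oligodendrocytes express in disease models 1, Il33, was called lower (−0.34), with 5 estimates above 0.

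Markers of other cells and regions were read beside the 8.38% of all genes called lower and the 9.35% called higher in this comparison. With the trend removed 2.96% of all genes were called lower, and the share called higher is not given here. Of 11 genes of axonal partners and neurofilaments 6 were called lower, with a median of −0.15, among them Kcna2 (−0.21, adjusted p = 0.000337) and Kcna1 (−0.20, adjusted p = 0.0118), the potassium channels beside the node, and these 2 of the 6 were still called with the trend removed, whereas Cntn1, Scn8a, Ank3 and Nefm were not. Of 8 neuron markers 0 were called lower and Stmn2 was called higher, and of 6 astrocyte markers 2 were called lower, Gja1 and Slc1a2. Of 6 microglia markers 2 were called higher, Tmem119 and C1qa, and of the calls in these 3 lists those of Stmn2, Slc1a2 and Tmem119 were kept with the trend removed and those of Gja1 and C1qa were not. The summed CPM of the astrocyte markers was 1836 to 2522 in APPtg/CETPtg and 2550 to 3002 in CETPtg mice. That of the axonal genes was 3037 to 3231 against 3308 to 3708, and that of the 9 members 2904 to 3869 against 3567 to 4228. Within vehicle-treated mice 4 of the 6 astrocyte markers were called lower and within evacetrapib-treated mice 1, where 4.42% and 1.71% of all genes were. Of 4 genes of plaque-associated microglia 0 were called, with 4 estimates above 0. Of 6 genes of peripheral myelin and Schwann cells 5 were tested and 0 called, with a summed CPM of 3.04 to 19.6 over the 16 mice against 2904 to 4228 for the 9 members. Of the region markers, 2 of 8 for striatum were called lower, with a summed CPM of 1309.9 to 1883 in APPtg/CETPtg and 1513 to 1892 in CETPtg mice, 1 of 7 for cerebral cortex was called higher, and of those for thalamus, hypothalamus, hindbrain, cerebellum and olfactory bulb 0 of 19 were called. With the trend removed 1 of 8 for striatum and 0 of 7 for cerebral cortex were called. Their part in the myelin difference was not tested.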

How the data were processed

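Bulk brain RNA of 16 female mice, 4 in each group, was measured by RNA-seq. Per the labels and the study's methods, the authors made directional libraries from poly(A) RNA, trimmed read pairs with Trimmomatic 0.39, aligned them to mm10 with STAR 2.7.8a, marked duplicates with Picard 2.0.1 and counted reads with HTSeq-count, whose version, annotation and strand setting are not given in the sources used here. The table the authors deposited holds raw counts for each gene, not normalized. Totals of 21391335 to 55453789 counts per mouse set the precision.

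A gene was tested where 4 or more mice had 10 or more counts. After TMM normalization, edgeR 4.0.16 (R 4.3.3) gave two-sided quasi-likelihood tests, adjusted by Benjamini-Hochberg over all 18609 genes. Treatment was tested with a genotype term, genotype with a treatment term, and effects within groups in a model of 4 group means, whose 16 mice share one estimate of the spread. A call needed an adjusted p of 0.05 or below and a change of at least 5%. CPM use TMM library sizes, and log2 CPM a prior count of 2. GC content is that of the longest transcript in GENCODE M21, and exon length the union of exons.

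The alternatives were DESeq2 1.42.0 (its size factors, and its Wald test), limma-voom (limma 3.58.1), total counts without TMM factors, no filter, at least 10 counts in every mouse, fits without the other term, fits to the 8 mice compared, and each mouse left out. The removal of each mouse's trend with GC content and exon length, by natural splines as an offset, was an alternative chosen after seeing the data. Of these steps only the edgeR test of genotype over all mice was run on simulated counts, with and without the removal of the trend. The members and gene lists were chosen with earlier results of these data known. Genes were named by a rule: the 9 members, up to 4 called genes of each list by size, the 10 genes most like the members, and Thy1; Anln and Gpr37, and the genes called only in an alternative, were named after their values were seen, as were Sox10, Olig2 and Gal3st1. A gene that the rule names is not reported here.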

Additional observations from a re-analysis of the deposited data

Results flagged for a closer look

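In 36 sets of 4 mice (9 genes in 4 groups), the gap between an end mouse and its nearest neighbour was compared with the range of the set, and 2 exceeded Dixon's 95% critical value for 4 samples. Chance alone flags about 1 in 20 such sets. Mobp stood at 551 CPM in S6 of the vehicle-treated APPtg/CETPtg group, where the other 3 mice lay between 690.1 and 707 CPM (gap over range 0.893). Cnp stood at 249 CPM in D of the evacetrapib-treated CETPtg group, where the other 3 lay between 297 and 306 CPM (0.837). Both mice were below their group mean in 9 of 9 members.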

How the results depend on the processing

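The genotype difference over all mice was below 0 for all 9 members in every alternative and with each mouse left out. So it was within vehicle-treated and within evacetrapib-treated mice. Within vehicle-treated mice the estimates without S6 came to −0.0068 for Cnp, −0.037 for Mbp, −0.038 for Opalin and −0.062 for Mag. They came to −0.080 for Mal, −0.089 for Mog and −0.11 for both Mobp and Cldn11. Ugt8a lay between −0.42 and −0.32 within vehicle-treated mice with each mouse left out. Over all mice 4 to 7 members were called: Ugt8a, Cldn11, Mobp and Mal in each case, Mbp and Mog in some, and Mag and Opalin in 1 fit each. Within vehicle-treated mice 1 was called except with the GC and length trend removed, where 0 were. Within evacetrapib-treated mice 2 were called, against 1 with the trend removed, 1 without TMM, 1 with limma-voom, 5 with DESeq2, 5 without the filter, 3 with the 8 mice compared alone, and 0 to 5 with each mouse left out. DESeq2 and the tests without the filter called 59 and 35 genes with evacetrapib over all mice, in place of 2, and 0 members. The share of all genes called lower within evacetrapib-treated mice moved too, from 1.71% in the main fit to 0.398% with the trend removed. It is not given here for DESeq2, limma-voom, the fit without the filter or the 8 mice compared. The member counts of these fits are therefore not read as a result about the members. The causes of these differences were not tested. No member was called with evacetrapib in any alternative, but estimates near 0 changed sign. With evacetrapib over all mice the log2 fold change became 0.0028 for Mbp without the genotype term, 0.0011 for Cnp with the size factors of DESeq2, and 0.0014 for both Cnp and Opalin in its Wald test. In CETPtg mice it became −0.0050 for Mobp, −0.0053 for Cnp and −0.018 for Mal without TMM, and for Mal −0.0026 with limma-voom and −0.00037 with at least 10 counts in every mouse. The difference between the genotypes' responses became 0.030 for Mag, 0.0016 for Cnp and 0.0065 for Ugt8a without TMM, and for Mag 0.0052 with limma-voom and 0.0010 with at least 10 counts in every mouse. With each mouse left out, estimates that crossed 0 ran over all mice from −0.028 to 0.041 for Mbp, −0.065 to 0.014 for Mag, −0.052 to 0.034 for Mog, −0.046 to 0.033 for Cnp and −0.075 to 0.096 for Opalin. In CETPtg mice they ran from −0.023 to 0.085 for Mobp, −0.084 to 0.010 for Cldn11, −0.076 to 0.061 for Mag, −0.026 to 0.11 for Mog, −0.012 to 0.078 for Cnp, −0.044 to 0.045 for Mal and −0.023 to 0.11 for Opalin. In APPtg/CETPtg mice they ran from −0.11 to 0.031 for Mag, −0.15 to 0.045 for Mog, −0.12 to 0.053 for Cnp and −0.22 to 0.17 for Opalin, and the difference between genotypes from −0.088 to 0.061 for Mag, −0.17 to 0.021 for Mog, −0.13 to 0.039 for Cnp, −0.072 to 0.043 for Ugt8a and −0.26 to 0.13 for Opalin. No paired analysis was possible because the labels give no replicate numbers that the groups share. With 4 mice a group, the 95% intervals within a genotype reached −27.3% and 33.2% for Opalin, the widest of the 9, so a response of Opalin within these limits could not be told from none. The intervals of the other 8 were narrower.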
